A study of Homo sapiens with 20 samples.

Results

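Messenger RNA of 4 intrahepatic bile duct cancer cell lines was compared with that of 5 extrahepatic bile duct cancer lines. The 9 lines were chosen by the tumour site that each label gives, from 20 biliary tract cancer lines in all, and each was sequenced as 1 library. The intrahepatic lines were HuCCT1, HuH28, SNU-1079 and TKKK. The extrahepatic lines were EGI-1, Sk-ChA-1, SNU-1196, SNU-245 and TFK-1. The other lines of the collection came from the gallbladder (7), the ampulla (3) or, for OZ, were labelled with both duct sites. All were grown untreated in the same medium. HuCCT1 and Sk-ChA-1 came from ascites, and the remaining 7 lines from primary tumours. HuCCT1 and TKKK were supplied by RIKEN, HuH28 by HSRRB, SNU-1079, SNU-1196 and SNU-245 by KCLB, EGI-1 and TFK-1 by DSMZ, and Sk-ChA-1 by Zurich University. KCLB was thus the 1 source with lines of both sites. Each line is an established culture with 1 library and no repeat, so the error given is the spread between lines.

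The intrahepatic ducts run through the liver from fine ductules to larger septal ducts, while the extrahepatic ducts carry bile onward to the gut and have mucus glands in their walls. Both are lined by cholangiocytes, keratin-rich epithelial cells that modify bile. Cadherins hold such cells to their neighbours, integrins hold them to the matrix, and actin filaments, stabilised by tropomyosins, connect to both. Carcinomas of either site can retain this epithelial programme or lose it in favour of mesenchymal genes.

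Deposited totals ran between 11487514 and 14247144 counts per library in the intrahepatic lines and between 10469013 and 15414668 counts in the extrahepatic lines. Levels are given as CPM, each gene's count relative to the library total after TMM scaling, and 3 counts correspond to 0.195 to 0.287 CPM, depending on the line. A CPM is not corrected for transcript length, so each gene is compared with itself across lines.

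The site labels were set against markers of the cholangiocyte and of other cell types. KRT7, a keratin of bile duct epithelium, was at 1410, 58.8, 1210 and 419 CPM in HuCCT1, HuH28, SNU-1079 and TKKK, against 23.7, 625, 795, 553 and 1370 CPM in EGI-1, Sk-ChA-1, SNU-1196, SNU-245 and TFK-1. KRT19, its usual companion in ducts, was at 1940, 1.02, 972 and 1260 CPM in the intrahepatic lines in that order, against 3070, 6830, 1510, 1760 and 1520 CPM in the extrahepatic lines. EPCAM, an epithelial adhesion molecule, was at 526, 0.254, 156 and 898 CPM in the intrahepatic lines, against 826, 123, 831, 2090 and 452 CPM in the extrahepatic lines. HuH28 was lowest of the 9 lines in KRT19 and EPCAM, and EGI-1 was lowest in KRT7. Other listed markers were not low in HuH28, among them the anion exchanger gene SLC4A2 at 383 CPM and the duct transcription factor SOX9 at 138 CPM. The 22 listed cholangiocyte markers summed to 778 CPM in HuH28, against 5080 to 8480 CPM in the other intrahepatic lines and 4880 to 9520 CPM in the extrahepatic lines. Conversely, the 10 listed fibroblast markers summed to 1630 CPM in HuH28, where none was at 0, against 3.5 to 153 CPM in the other intrahepatic lines and 6.1 to 505 CPM in the extrahepatic lines. The part of these transcripts in the differences between the sites was not tested, and main list counts are also given without HuH28. Outside HuH28 the highest fibroblast sum of each site was mostly FBLN1, at 141 CPM in HuCCT1 and 491 CPM in Sk-ChA-1. ALB, the albumin gene that marks hepatocytes, was at 0, 0, 0.409 and 0.416 CPM in the intrahepatic lines and at 0, 0.146, 0.223, 0 and 0 CPM in the extrahepatic lines. The hepatocyte list summed to between 7.55 and 479 CPM in the intrahepatic lines and between 40.5 and 273 CPM in the extrahepatic lines, with 1 to 11 and 6 to 14 of its 20 markers at 0. Its highest sum at each site was mostly SERPINA1, at 450 CPM in HuCCT1 and 268 CPM in SNU-1196. The endothelial list reached at most 57.1 CPM in an intrahepatic line (HuH28) and at most 19.4 CPM in an extrahepatic line. The leukocyte list summed to 20.5 to 202 CPM in the intrahepatic lines and 53.6 to 3120 CPM in the extrahepatic lines, and its highest sum came from LYZ in SNU-245. The mesothelial list summed to 64.6 to 842 CPM in the intrahepatic lines and 157 to 1210 CPM in the extrahepatic lines.

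Likeness between lines only partly followed the site. Across genes, Pearson's r of log2 levels between 2 intrahepatic lines had a median of 0.868 (range 0.801 to 0.894, 6 pairs), and between 2 extrahepatic lines a median of 0.91 (0.881 to 0.92, 10 pairs). Between lines of different sites the median was 0.885 (0.786 to 0.939, 20 pairs). These r values are descriptions across genes, which are not independent, and lines of 1 site enter several pairs. The closest line to HuCCT1 and to TKKK was EGI-1, and the closest to SNU-1079 was TFK-1, so 3 of the 4 intrahepatic lines were nearest to an extrahepatic one, while HuH28 was nearest to SNU-1079. Of the extrahepatic lines, SNU-1196, SNU-245 and TFK-1 were nearest to another extrahepatic line, and EGI-1 and Sk-ChA-1 to HuCCT1. HuH28 was the farthest line for 7 of the other 8 lines.

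Two-sided tests were made with edgeR's quasi-likelihood fit over the 14422 genes that passed the count filter, and adjusted p is Benjamini-Hochberg adjusted over those genes. Log2 differences are intrahepatic minus extrahepatic. The SE beside a log2 difference was calculated back from the test statistic and was not estimated separately. At an adjusted p under 0.05, 2 genes were higher in the intrahepatic lines (0.0139% of the genes tested) and 0 were lower. At an unadjusted p under 0.05, 563 genes were higher (3.9%) and 378 lower (2.62%), or 6.52% in either direction. DESeq2 called 177 higher and 116 lower, including both edgeR calls, and limma-voom called 1 higher (TPM1) and 0 lower. The 2 genes were CDH6 and TPM1.

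CDH6, on chromosome 5, encodes cadherin-6, a classical cadherin best known from the kidney. It was at 348, 42.3, 316 and 39.2 CPM in HuCCT1, HuH28, SNU-1079 and TKKK, against 0.0728 CPM in Sk-ChA-1 and 0 CPM in EGI-1, SNU-1196, SNU-245 and TFK-1. All 4 intrahepatic lines stood far above every extrahepatic line, with HuCCT1 and SNU-1079 well above the other pair. The counts behind these values were 8926 over the intrahepatic lines and 1 over the extrahepatic lines. The intrahepatic mean of 186 ± 169 CPM (SD, n = 4) was 12800 times the extrahepatic mean of 0.0146 ± 0.0325 CPM (SD, n = 5), with a 95% counting interval of 2300 to 506000 that rests on that single count and does not cover the spread between lines. The fitted log2 difference was 12.84 (SE 1.24) with an edgeR adjusted p of 0.0275. The extrahepatic level was below what 3 counts allow in each of the 5 libraries. Within KCLB, SNU-1079 had 316 CPM and SNU-1196 and SNU-245 had 0 CPM. OZ, labelled with both sites, was at 92.3 CPM on the scaling of all 20 lines. Gallbladder lines had a median of 0.156 CPM and a highest value of 178 CPM, and ampullary lines a median of 0 and a highest value of 0.0864 CPM, so the transcript was also found in a gallbladder line.

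TPM1, on chromosome 15, encodes tropomyosin 1, which winds along actin filaments and steadies them. Its levels were 727, 1270, 1160 and 616 CPM in HuCCT1, HuH28, SNU-1079 and TKKK, against 118, 76.1, 55.8, 106 and 70.1 CPM in EGI-1, Sk-ChA-1, SNU-1196, SNU-245 and TFK-1. The groups did not overlap, and the lowest intrahepatic line, TKKK, lay well above the highest extrahepatic line, EGI-1. Means were 942 ± 318 CPM (SD, n = 4) in the intrahepatic lines and 85.2 ± 25.9 CPM (SD, n = 5) in the extrahepatic lines, a ratio of 11.1. The log2 difference was 3.47 (SE 0.39) with an edgeR adjusted p of 0.0387. Within KCLB, SNU-1079 had 1160 CPM, against 55.8 and 106 CPM in SNU-1196 and SNU-245. OZ was at 31.3 CPM, below all 5 extrahepatic lines, gallbladder lines had a median of 118 CPM (highest 685) and ampullary lines a median of 63.1 CPM (highest 206).

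**Figure D1:**
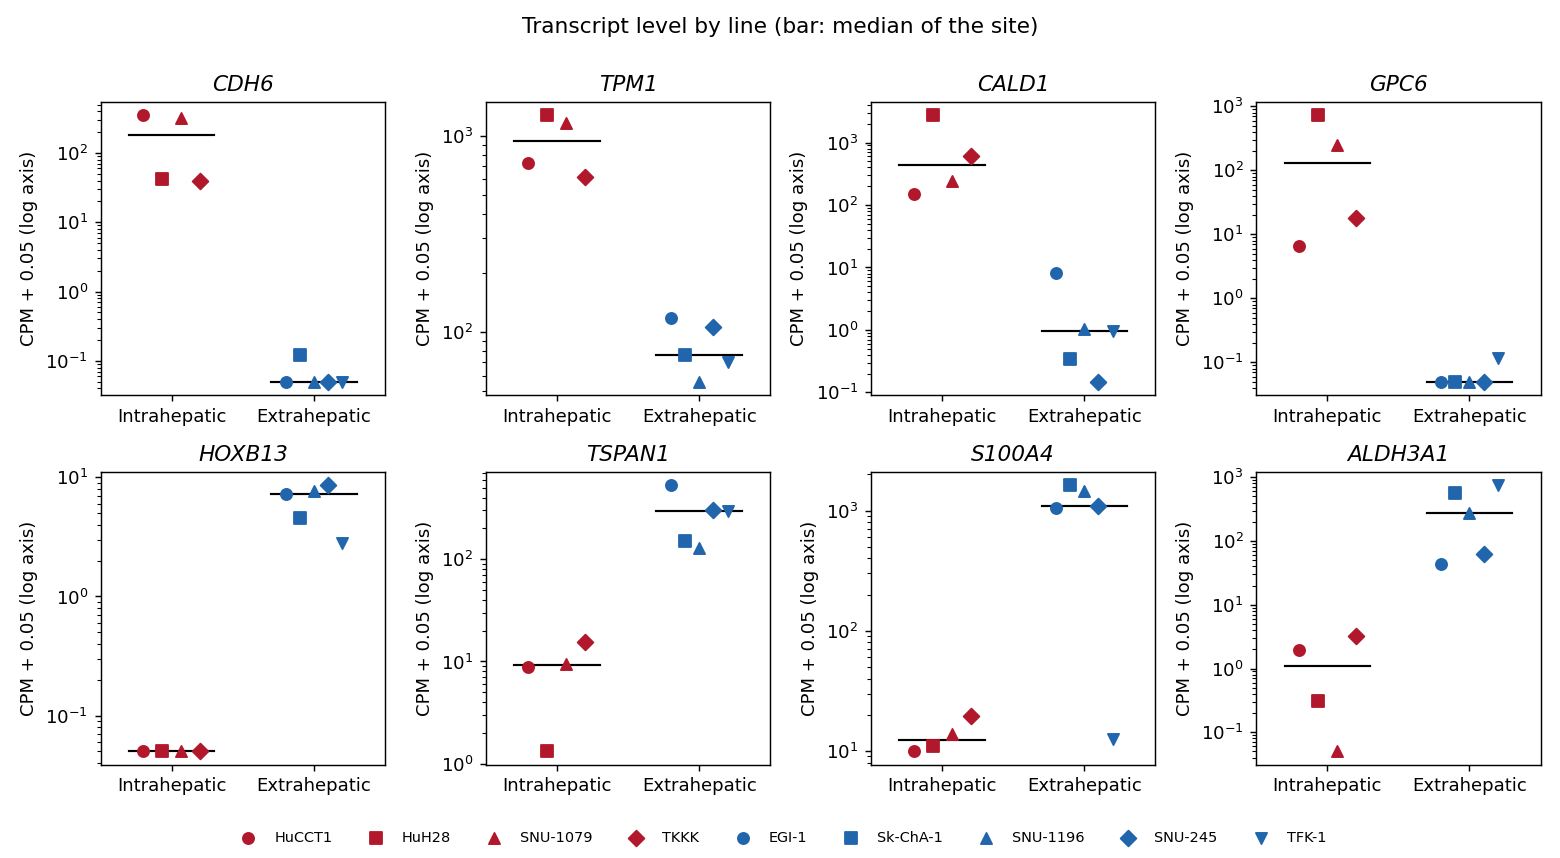
Level of 8 genes in each line, as CPM + 0.05 on a log axis, with intrahepatic lines in red at the left and extrahepatic lines in blue at the right. Points are single libraries and bars are site medians. CDH6 and GPC6 were near 0 in the extrahepatic lines, HOXB13 was at 0 in the 4 intrahepatic lines, and for S100A4 the line TFK-1 (12.6 CPM) lay among the intrahepatic lines.

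Both calls were sensitive to which lines entered. With 1 line left out, the edgeR adjusted p of CDH6 was 0.0187 without HuH28 and 0.0191 without TKKK, and missed the threshold without EGI-1 (0.111), HuCCT1 (0.0766), Sk-ChA-1 (0.495), SNU-1079 (0.0936), SNU-1196 (0.213), SNU-245 (0.171) or TFK-1 (0.112). For TPM1 it was 0.0386 without TKKK and missed the threshold without EGI-1 (0.111), HuCCT1 (0.0808), HuH28 (0.118), Sk-ChA-1 (0.403), SNU-1079 (0.185), SNU-1196 (0.218), SNU-245 (0.171) or TFK-1 (0.172). Line source was also made a covariate, with DSMZ and Zurich University taken as 1 source. Site was then compared within KCLB alone, as SNU-1079 against SNU-1196 and SNU-245. Log2 differences were 14.94 for CDH6 and 3.84 for TPM1, in a fit with 4 residual degrees of freedom. These values rest on 1 intrahepatic line and do not compare the sites over all sources. Among the lines from primary tumours the edgeR adjusted p was 0.533 for CDH6 and 0.408 for TPM1. The log2 difference kept its sign for both genes in every setting tried. It lay between 3.16 and 3.84 for TPM1 and between 11.22 and 14.94 for CDH6, except that CDH6 came to 3.64 with OZ counted as extrahepatic.

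**Figure D2:**
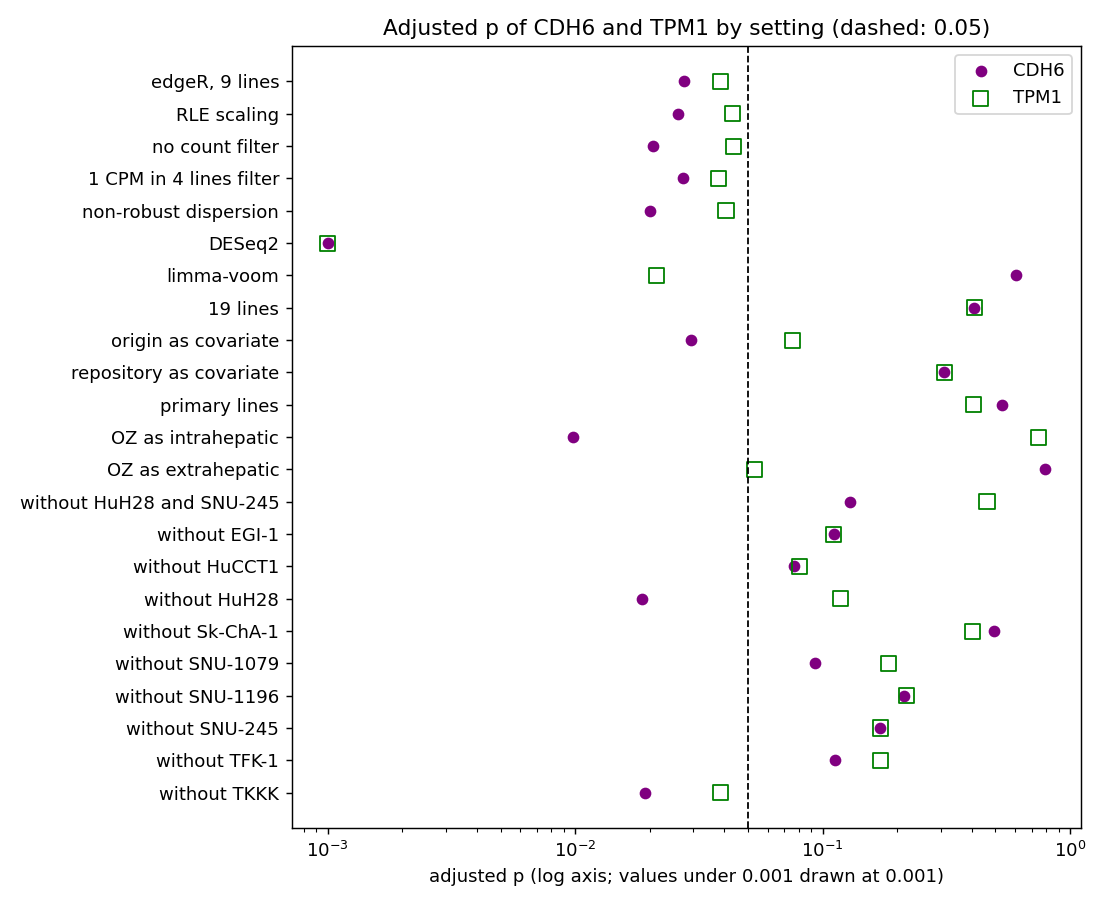
Adjusted p of CDH6 (filled circles) and TPM1 (open squares) under each setting, on a log axis, with 0.05 as a dashed line. With all 9 lines in edgeR the values were 0.0275 and 0.0387. Of the fits without 1 line, 2 kept CDH6 and 1 kept TPM1 below the line.

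TPM1 belongs to a list of 20 genes of actin filaments and their contraction, of which 19 passed the count filter. All 19 tested members had a positive log2 difference, with a median of 1.74 against -0.01 for all genes tested. Of all 14422 genes tested, 7160 were positive and 7262 negative. Besides the TPM1 call, 7 further members were higher at an unadjusted p under 0.05, as were 3.9% of all genes tested. Without HuH28, 16 of 19 were positive and the median was 0.75. TKKK had a mean list level of -0.35 log2 units relative to the average of the 9 lines, whereas the other 3 intrahepatic lines were above it.

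CALD1, which encodes the actin-binding caldesmon, was at 150, 2720, 243 and 618 CPM in the intrahepatic lines, against 8.18, 0.291, 0.967, 0.0982 and 0.902 CPM in the extrahepatic lines. These ranges did not overlap, yet the log2 difference of 8.79 (SE 1.61) had an edgeR adjusted p of 0.605. FLNA, a crosslinker of actin filaments, was at 2930, 13000, 3960 and 377 CPM in the intrahepatic lines, against 476, 1330, 970, 296 and 493 CPM in the extrahepatic lines. TKKK fell within the extrahepatic range for FLNA (edgeR adjusted p 0.717). MYL9, a myosin regulatory light chain, was at 6.29, 2230, 38.4 and 5.16 CPM in the intrahepatic lines, against 3.77, 0.509, 23.3, 1.18 and 4.16 CPM in the extrahepatic lines. Its difference rested mostly on HuH28 (log2 6.43, edgeR adjusted p 0.717). ACTA2, the smooth muscle actin, was at 2.38, 180, 24.7 and 0.499 CPM in the intrahepatic lines, against 2.17, 3.35, 4.91, 0.295 and 0.347 CPM in the extrahepatic lines, and again HuH28 was highest.

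Many actin genes are known targets of serum response factor, which binds the CArG box, CC, a run of A or T bases, then GG. The box reads as a CArG box on either strand. Upstream stretches of 250 bases from RefSeq (GRCh38.p14, a later build than the hg19 named in the submitters' processing notes, and used here for sequence alone) were found for 18 of the 20 actin genes, 29 stretches in all, and 5 stretches, of 5 genes, held the box. Over all genes it occurs in 407 of 35114 such stretches (1.16%). TPM1 is shown whole because it was called. FLNA, MYLK and TPM4 are shown over 100 bases around the box, as examples of members that hold it, and MYLK and TPM4 were picked for their sequence after their values were seen. All are in the direction of transcription, 5′ to 3′. TPM1 lies at chr15:63048239-63048488 (plus strand), FLNA at chrX:154374674-154374773 (minus strand), MYLK at chr3:123620588-123620687 (minus strand) and TPM4 at chr19:16067320-16067419 (plus strand). Capitals mark the CArG box.
TPM1: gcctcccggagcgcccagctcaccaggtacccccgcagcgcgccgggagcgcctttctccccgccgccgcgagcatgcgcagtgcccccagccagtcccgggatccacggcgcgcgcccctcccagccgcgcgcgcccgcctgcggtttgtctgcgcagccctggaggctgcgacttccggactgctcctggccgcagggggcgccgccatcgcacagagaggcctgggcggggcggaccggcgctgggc
FLNA: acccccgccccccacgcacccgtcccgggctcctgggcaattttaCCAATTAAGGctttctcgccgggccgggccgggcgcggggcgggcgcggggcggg
MYLK: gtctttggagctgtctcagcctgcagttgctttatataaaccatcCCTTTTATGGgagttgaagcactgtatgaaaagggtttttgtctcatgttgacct
TPM4: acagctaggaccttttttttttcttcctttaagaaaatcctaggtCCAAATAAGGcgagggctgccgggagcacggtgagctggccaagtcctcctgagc
The TPM1 stretch is 78.4% G or C and has no CArG box. In FLNA and MYLK the box ends 84 bases before the annotated start, and in TPM4 163 bases before it. MYLK, the myosin light chain kinase, was at 62.3, 522, 447 and 4.91 CPM in the intrahepatic lines, against 48.8, 24.4, 2.53, 6.48 and 51.7 CPM in the extrahepatic lines (log2 3.27, edgeR adjusted p 0.75). TPM4, a tropomyosin of non-muscle cells, was at 270, 2660, 121 and 214 CPM in the intrahepatic lines, against 347, 591, 222, 291 and 300 CPM in the extrahepatic lines (log2 1.22, edgeR adjusted p 0.835). HuH28 was highest for both, and TKKK lay inside the extrahepatic range for MYLK. For TPM4, HuH28 alone lay above the extrahepatic range, with HuCCT1 inside it and TKKK and SNU-1079 below it.

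Next after the called genes came GPC6, a cell-surface heparan sulphate proteoglycan of the glypican family. It was at 6.46, 721, 246 and 18 CPM in HuCCT1, HuH28, SNU-1079 and TKKK, against 0.0694 CPM in TFK-1 and 0 CPM in the other 4 extrahepatic lines. The groups did not overlap, but the intrahepatic lines were widely spread among themselves (mean 248 ± 334 CPM, SD, n = 4, against 0.0139 ± 0.031 CPM, SD, n = 5), and the edgeR adjusted p was 0.183. The counts were 11797 and 1, a ratio of means of 17900 with a 95% counting interval of 3200 to 705000.

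The other genes of smallest p on the higher side also had no overlap and also missed the threshold, with edgeR adjusted p between 0.605 and 0.648. LAMB1, a laminin chain of basement membranes, was at 599, 1620, 1290 and 762 CPM in the intrahepatic lines, against 360, 310, 302, 228 and 296 CPM in the extrahepatic lines. The step is modest (log2 1.84, SE 0.37) and the extrahepatic lines were close together. PVR, the poliovirus receptor and a nectin-like adhesion molecule, was at 255, 305, 650 and 701 CPM in the intrahepatic lines, against 141, 90.1, 171, 105 and 94.4 CPM in the extrahepatic lines. IL32, a cytokine gene, was at 109, 48.2, 160 and 161 CPM in the intrahepatic lines, against 19, 4.95, 0.446, 2.55 and 4.65 CPM in the extrahepatic lines. For both genes every intrahepatic line exceeded every extrahepatic line, with log2 differences of 1.99 (SE 0.41) and 4.24 (SE 0.91). FAT3, an atypical cadherin, was at 4.59 to 32.7 CPM in the intrahepatic lines and at 0 to 0.437 CPM in the extrahepatic lines. ADAMTS6, a secreted metalloprotease, was at 6.08 to 37.6 CPM in the intrahepatic lines and at 0 to 1.76 CPM in the extrahepatic lines. IL12A, which encodes a subunit of interleukin 12, was at 1.78 to 16.4 CPM in the intrahepatic lines and 0.0982 to 0.582 CPM in the extrahepatic lines. CCDST and PCED1A completed the set, with log2 differences of 5.64 (SE 1.08) and 1.35 (SE 0.27).

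Large steps in median level without overlap added 4 genes. EVC, a component of the primary cilium, was at 34.3, 140, 17.2 and 21.7 CPM in the intrahepatic lines, against 3.21, 0, 0.0744, 0.0982 and 0 CPM in the extrahepatic lines, of which EGI-1 stood apart. FIGN, a microtubule-severing enzyme, was at 10.7, 16.2, 11.4 and 22.4 CPM in the intrahepatic lines, against 0.16, 0, 0, 0 and 5.2 CPM in the extrahepatic lines, where TFK-1 stood apart. SLC35F3 ranged between 6.53 and 45.3 CPM in the intrahepatic lines and between 0 and 2.62 CPM in the extrahepatic lines, and NALF1 between 9.09 and 32.5 CPM in the intrahepatic lines and between 0 and 4.03 CPM in the extrahepatic lines. Their edgeR adjusted p lay between 0.685 and 0.754.

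On the lower side the gene of smallest p was HOXB13, a posterior homeobox transcription factor. It had 0 counts in all 4 intrahepatic lines, against 7.22, 4.51, 7.66, 8.55 and 2.78 CPM in EGI-1, Sk-ChA-1, SNU-1196, SNU-245 and TFK-1. Its intrahepatic level was at least 101-fold lower, taking 3 counts over the intrahepatic lines as the floor, but the edgeR adjusted p was 0.183. OZ was at 1.77 CPM, gallbladder lines at 0 to 11.2 CPM and ampullary lines at 7.16 to 14.3 CPM.

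TSPAN1, a tetraspanin of epithelial surfaces, was at 8.75, 1.27, 9.5 and 15.6 CPM in the intrahepatic lines, against 530, 151, 129, 301 and 297 CPM in the extrahepatic lines. The groups did not overlap (log2 -5.00, SE 0.80, edgeR adjusted p 0.326), while OZ was at 494 CPM. ALDH3A1, an aldehyde dehydrogenase, was at 1.87, 0.254, 0 and 3.16 CPM in the intrahepatic lines, against 43.6, 557, 274, 62.4 and 752 CPM in the extrahepatic lines. It too had no overlap (log2 -7.99, SE 1.60, edgeR adjusted p 0.615). ABCG1, a sterol efflux transporter, was at 3.14, 1.44, 2.54 and 2.33 CPM in the intrahepatic lines, against 13.5, 40.5, 43.6, 13.3 and 11.6 CPM in the extrahepatic lines. The 4 intrahepatic lines lay within a narrow range, all below the extrahepatic lines (log2 -3.37, SE 0.62, edgeR adjusted p 0.605).

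S100A4, a calcium-binding protein linked to cell motility, was at 9.86, 11, 13.7 and 19.6 CPM in the intrahepatic lines, against 1050, 1630, 1470, 1100 and 12.6 CPM in the extrahepatic lines. TFK-1 was the exception, inside the intrahepatic range. With all 9 lines the edgeR adjusted p was 0.605 (log2 -6.28, SE 1.18), and without TFK-1 it was 0.00378 (log2 -6.6). Of the 9 fits without 1 line, this was the 1 that passed. It leaves out the line that goes against the difference, so its small p is not support. EDAR, the ectodysplasin receptor, followed the same pattern at lower levels, with 0.595, 0.0848, 0.0819 and 0.333 CPM in the intrahepatic lines, against 12.1, 13.9, 14.8, 24.6 and 0.347 CPM in the extrahepatic lines.

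The remaining genes of smallest p on the lower side had no overlap and an edgeR adjusted p of 0.615 to 0.648. DOCK8, an activator of small GTPases, ranged between 0.254 and 6.55 CPM in the intrahepatic lines and between 21.5 and 153 CPM in the extrahepatic lines. CORO2A, an actin-binding coronin, ranged between 4.32 and 20.5 CPM in the intrahepatic lines and between 51 and 126 CPM in the extrahepatic lines. TRIM2, a ubiquitin ligase, and FOXC1, a forkhead transcription factor, had log2 differences of -2.04 (SE 0.44) and -1.82 (SE 0.41). RBP4, a retinol carrier, was at 0 to 0.254 CPM in the intrahepatic lines and 1.46 to 8.8 CPM in the extrahepatic lines. LOC100130992 had 0 counts in the 4 intrahepatic lines and 0.982 to 6.92 CPM in the extrahepatic lines.

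Large steps in median added 5 genes on the lower side. CEACAM5, carcinoembryonic antigen, was at 0.68, 0, 0 and 0.749 CPM in the intrahepatic lines, against 191, 12.1, 6.25, 1820 and 41.6 CPM in the extrahepatic lines. All 5 extrahepatic lines expressed it above the intrahepatic lines, at very unequal levels (log2 -10.14, SE 2.47, edgeR adjusted p 0.648). PCSK6, a proprotein convertase, was at 6.97, 1.1, 21.3 and 2.08 CPM in the intrahepatic lines, against 104, 119, 22.1, 74.1 and 77.4 CPM in the extrahepatic lines, and SNU-1079 and SNU-1196, both from KCLB, nearly met. ZBTB7C ranged between 0 and 3.57 CPM in the intrahepatic lines and between 9.63 and 63.1 CPM in the extrahepatic lines. MALL ranged between 0.17 and 102 CPM in the intrahepatic lines and between 115 and 232 CPM in the extrahepatic lines. SLC16A5, a monocarboxylate transporter, ranged between 0.17 and 67.8 CPM in the intrahepatic lines and between 127 and 175 CPM in the extrahepatic lines, so the extrahepatic lines were much closer together for both.

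Over all genes tested, 135 had no overlap with the intrahepatic lines higher (0.936%) and 142 with the intrahepatic lines lower (0.985%), or 1.92% in all. OZ is informative for these because its label names both sites. On the scaling of 20 lines OZ lay on the intrahepatic side for 122 of the 277 genes, on the extrahepatic side for 127 and between the groups for 28. It therefore did not fall with either site. For the 135 genes, gallbladder lines lay on the intrahepatic side for between 29.6% and 71.1% and ampullary lines for between 26.7% and 37%, and for the 142 genes the corresponding shares were 23.9% to 73.2% and 28.9% to 40.8%.

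Epithelial and mesenchymal genes, which describe how cells hold to one another and to the matrix, lay on opposite sides. Of the epithelial list, all 24 members were tested and all 24 had a negative log2 difference (median -0.99), with 0 at an unadjusted p under 0.05 in edgeR. Without HuH28, 23 of 24 were negative and the median was -0.6, and without TKKK the median was -1.79. By line, the mean list level relative to the 9 lines was 1.1, -5.8, -2.48 and 1.53 log2 units in HuCCT1, HuH28, SNU-1079 and TKKK, against 2.09, -1.27, 1.35, 2.11 and 1.36 in EGI-1, Sk-ChA-1, SNU-1196, SNU-245 and TFK-1. HuH28 and SNU-1079 were the 2 lowest lines, and HuCCT1 and TKKK lay within the extrahepatic range.

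ELF3, an epithelial transcription factor, was at 184, 0.339, 295 and 29.8 CPM in the intrahepatic lines, against 526, 738, 327, 1220 and 575 CPM in the extrahepatic lines. It was the 1 epithelial member without overlap (edgeR adjusted p 0.782), and 1.92% of all genes tested had no overlap. KRT8, a keratin of simple epithelia, was at 1350, 94.4, 1310 and 3110 CPM in the intrahepatic lines, against 3270, 1370, 2390, 5420 and 5600 CPM in the extrahepatic lines. CLDN3, a tight junction claudin, was at 14.4, 0.17, 6.63 and 57.9 CPM in the intrahepatic lines, against 80.9, 2.69, 132, 393 and 11.6 CPM in the extrahepatic lines. For these 2 genes the groups overlapped and HuH28 was lowest. CDH1, the E-cadherin gene, named after its values were seen, was at 321, 4.83, 1.72 and 891 CPM in the intrahepatic lines, against 908, 264, 339, 696 and 758 CPM in the extrahepatic lines. HuH28 and SNU-1079 were the lines low in E-cadherin. Among claudins as a family, 6 of 10 tested members of 16 were positive, with a median of 0.15 (-0.5 to 0.51 without 1 line). CLDN2, which forms a cation-permeable junction pore, was at 131, 0.339, 1550 and 16.6 CPM in the intrahepatic lines, against 0.241, 2.33, 13.8, 32.6 and 10.5 CPM in the extrahepatic lines.

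Of the mesenchymal list, 20 of 30 members were tested, and 19 had a positive log2 difference (list median 5.08). At an unadjusted p under 0.05, 11 were higher and 1 lower, against 3.9% and 2.62% of all genes tested. The count filter favours members high in 1 group, so these counts are partly set by it. S100A4 was the negative member. Without HuH28, 18 of 20 were positive and the median was 1.67, and without HuH28 and SNU-245 together it was 1.57. COL5A2, a fibrillar collagen chain, was at 106, 1450, 7.61 and 0.832 CPM in the intrahepatic lines, against 0.963, 0.873, 2.9, 0.688 and 1.53 CPM in the extrahepatic lines. THBS1, the matrix glycoprotein thrombospondin 1, was at 5720, 5010, 3220 and 77.2 CPM in the intrahepatic lines, against 348, 92.3, 47.2, 8.94 and 99.5 CPM in the extrahepatic lines. TKKK lay inside the extrahepatic range for THBS1 and below all but 1 extrahepatic line for COL5A2. VIM, the vimentin gene, also named after its values were seen, was at 248, 1540, 2440 and 1.17 CPM in the intrahepatic lines, against 0.481, 1590, 4.24, 0.491 and 0.278 CPM in the extrahepatic lines. HuCCT1, HuH28, SNU-1079 and the extrahepatic Sk-ChA-1 were the lines with vimentin. Of these, HuCCT1 and Sk-ChA-1 came from ascites and HuH28 and SNU-1079 from primary tumours, and a part of origin was not tested. Mean list levels were 1.79, 5.08, 1.93 and -1.96 log2 units in HuCCT1, HuH28, SNU-1079 and TKKK, against -0.74, -0.27, -1.25, -2.94 and -1.65 in the extrahepatic lines.

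**Figure D3:**
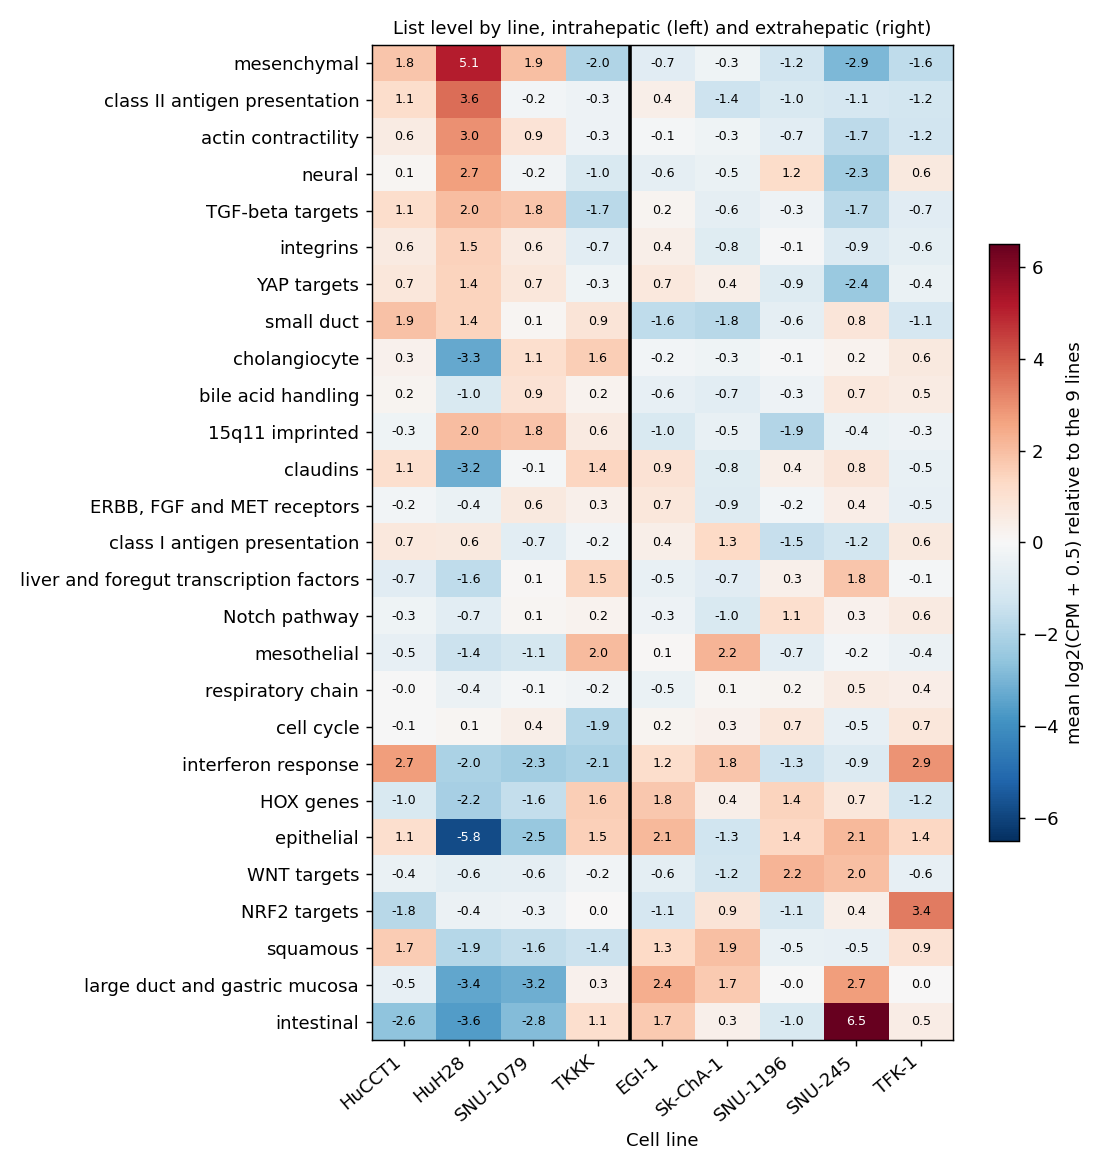
Mean log2(CPM + 0.5) of the tested members of each list, relative to the mean of the 9 lines, with intrahepatic lines at the left of the black line and extrahepatic lines at the right. HuH28 had the highest mesenchymal (5.08) and lowest epithelial (-5.8) level, and TKKK (-1.96 mesenchymal) lay among the extrahepatic lines.

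Integrins, the receptors for matrix proteins, were mostly positive. Of 15 tested integrin genes of 18, 11 were positive (median 1.06). At an unadjusted p under 0.05, 7 were higher, against 3.9% of all genes tested. Without HuH28, 12 were positive and the median was 0.69. ITGA5, the fibronectin receptor subunit, was at 30.7, 1570, 162 and 12.9 CPM in the intrahepatic lines, against 26.1, 4.44, 16.5, 2.75 and 19.5 CPM in the extrahepatic lines. ITGB3, its vitronectin-binding relative, was at 7.39, 110, 22.5 and 0.0832 CPM in the intrahepatic lines, against 0.481, 0.8, 0.372, 0.196 and 1.04 CPM in the extrahepatic lines. TKKK was the intrahepatic line without the higher level in both. ITGAV, an alpha subunit that pairs with several beta subunits, was at 388, 771, 406 and 148 CPM in the intrahepatic lines, against 291, 200, 89.7, 83.7 and 128 CPM in the extrahepatic lines, and TKKK overlapped the extrahepatic lines again.

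YAP targets, which are transcribed when the cytoskeleton is under tension, were positive in 17 of 18 members (median 0.78). At an unadjusted p under 0.05, 4 were higher, against 3.9% of all genes tested. Without HuH28, 16 of 18 were positive (median 0.82), and without SNU-245 the median was 0.64. By line, mean list levels were 0.74, 1.43, 0.72 and -0.27 log2 units in HuCCT1, HuH28, SNU-1079 and TKKK. They were 0.69, 0.4, -0.86, -2.42 and -0.43 in EGI-1, Sk-ChA-1, SNU-1196, SNU-245 and TFK-1. CCN1, a secreted matrix protein, was at 251, 1990, 732 and 43.2 CPM in the intrahepatic lines, against 150, 77.3, 17.1, 2.65 and 85.6 CPM in the extrahepatic lines. CCN2, connective tissue growth factor, was at 16.7, 955, 51.6 and 1.83 CPM in the intrahepatic lines, against 6.34, 46.6, 1.78, 0.491 and 3.89 CPM in the extrahepatic lines. HuH28 was highest for both and TKKK overlapped the extrahepatic lines. TGF-beta targets were positive in 12 of 15 tested members (median 1.18), and in 11 of 15 without HuH28 (median 1.11). At an unadjusted p under 0.05, 6 were higher and 1 lower, against 3.9% and 2.62% of all genes tested. Mean list levels were 1.12, 2.01, 1.8 and -1.74 log2 units in the intrahepatic lines. In the extrahepatic lines they were 0.16, -0.57, -0.31, -1.73 and -0.74, so TKKK was lowest. INHBA, an activin subunit, was at 50.5, 111, 150 and 0.25 CPM in the intrahepatic lines, against 6.02, 0, 0.0744, 0 and 0.0694 CPM in the extrahepatic lines. HuCCT1, HuH28 and SNU-1079 were above every extrahepatic line and TKKK was not (edgeR adjusted p 0.722). SMAD6, an inhibitor of bone morphogenetic protein signals, ran the other way without overlap, at 11.2, 21.7, 21 and 15.8 CPM in the intrahepatic lines, against 49.2, 74, 102, 22.4 and 46.6 CPM in the extrahepatic lines (edgeR adjusted p 0.685).

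Lists of duct identity were described next. Of the cholangiocyte list, 16 of 22 members were tested and 10 were positive (median 0.45), and the median lay between -0.39 (without TKKK) and 0.8 (without SNU-245) when 1 line was left out. PKHD1, the fibrocystin gene of the cholangiocyte cilium, was at 12.2, 0, 84.4 and 146 CPM in the intrahepatic lines, against 10.3, 0, 1.56, 0.196 and 4.3 CPM in the extrahepatic lines. The 3 intrahepatic lines other than HuH28 were above all extrahepatic lines (edgeR adjusted p 0.754). Genes of small ducts, a list that holds CDH6, were positive in 6 of 7 tested members (median 0.64), and in 4 of 7 without HuH28. Leaving out 1 line gave medians between 0.3 (without EGI-1) and 1.56 (without SNU-245). CDH2, the N-cadherin gene, which is on this list and on the mesenchymal list, was at 121, 1280, 289 and 0 CPM in the intrahepatic lines, against 0.241, 0.946, 0, 0.0982 and 39.6 CPM in the extrahepatic lines, so TKKK and TFK-1 were the exceptions. Transcription factors of liver and foregut were positive in 8 of 21 (median -0.36), with medians between -1.07 (without TKKK) and 0.67 (without SNU-245) when 1 line was left out. SOX4, a developmental factor, was at 246, 140, 340 and 358 CPM in the intrahepatic lines, against 168, 84.1, 218, 90.1 and 138 CPM in the extrahepatic lines. Bile acid handling genes were positive in 5 of 8 (median 0.45, and -0.39 to 0.72 without 1 line), and the few tested hepatocyte (2 of 4), fibroblast (2 of 2), endothelial (0 of 1), leukocyte (1 of 3) and mesothelial (2 of 5) markers gave no common direction.

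Genes of large ducts and gastric mucosa were negative in 11 of 12 tested members of 18 (median -3.72). At an unadjusted p under 0.05, 3 were lower, against 2.62% of all genes tested. The count filter favours members high in 1 group, so these counts are partly set by it. LYZ, lysozyme, was at 2.55, 0.0848, 0.164 and 1.08 CPM in the intrahepatic lines, against 156, 35.3, 257, 3040 and 1.25 CPM in the extrahepatic lines. PSCA, a surface antigen of glandular epithelia, was at 4.25, 1.95, 2.37 and 33.8 CPM in the intrahepatic lines, against 2050, 1100, 3.35, 271 and 13.1 CPM in the extrahepatic lines. TFF2, a trefoil peptide of gastric glands, was at 1.44, 0, 0.0819 and 0.333 CPM in the intrahepatic lines, against 20.9, 58.6, 9.07, 3.73 and 0.0694 CPM in the extrahepatic lines. TFK-1 fell within or below the intrahepatic range for all 3 genes, and SNU-1196 within it for PSCA, and the edgeR adjusted p lay between 0.685 and 0.722. Without HuH28 the count was again 11 of 12 (median -3.35).

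Of the intestinal list, 8 of 23 members were tested, and 4 were lower at an unadjusted p under 0.05, against 2.62% of all genes. All 8 tested members were negative (median -4.53). The count filter favours members high in 1 group, and CEACAM5, at 0 to 0.749 CPM in the intrahepatic lines, passed through the extrahepatic lines. The shared sign and the count of 4 are therefore partly set by the filter and are not support for a difference. SNU-245 carried much of this, with a mean level 6.48 log2 units above the average of the 9 lines, and without it the median was -1.89, with 4 of 6 tested members negative. Without TKKK the median was -8.17. KRT20, an intestinal keratin, was at 0.255, 0, 1.31 and 0.0832 CPM in the intrahepatic lines, against 839, 0.0728, 0.892, 944 and 0.139 CPM in the extrahepatic lines. LGALS4, a galectin of gut epithelium, was at 0.17, 0.0848, 0.164 and 2.16 CPM in the intrahepatic lines, against 0.241, 2.98, 3.2, 1230 and 0.625 CPM in the extrahepatic lines. KRT20 was thus high in EGI-1 and SNU-245 and LGALS4 in SNU-245 alone. The squamous list was negative in 7 of 8 (median -2.31), with a median of -1.15 without Sk-ChA-1 and -3.98 without HuCCT1. The neural list was positive in 5 of 6 (median 1.27), and in 3 of 6 without HuH28 (median -0.15).

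HOX genes, which record position along the body axis, were negative in 20 of 27 tested members of 39 (median -0.84). The median was -0.55 without HuH28, -0.48 without SNU-1079 and -2.64 without TKKK, and without TKKK all 27 were negative. HOXA13, with HOXB13 a member of the most posterior group, was at 1.36, 0.17, 0 and 9.41 CPM in the intrahepatic lines, against 9.95, 31.3, 20.4, 34.6 and 4.44 CPM in the extrahepatic lines. The groups overlapped through TKKK and TFK-1 (log2 -2.88, SE 1.42, edgeR adjusted p 0.764).

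**Figure D4:**
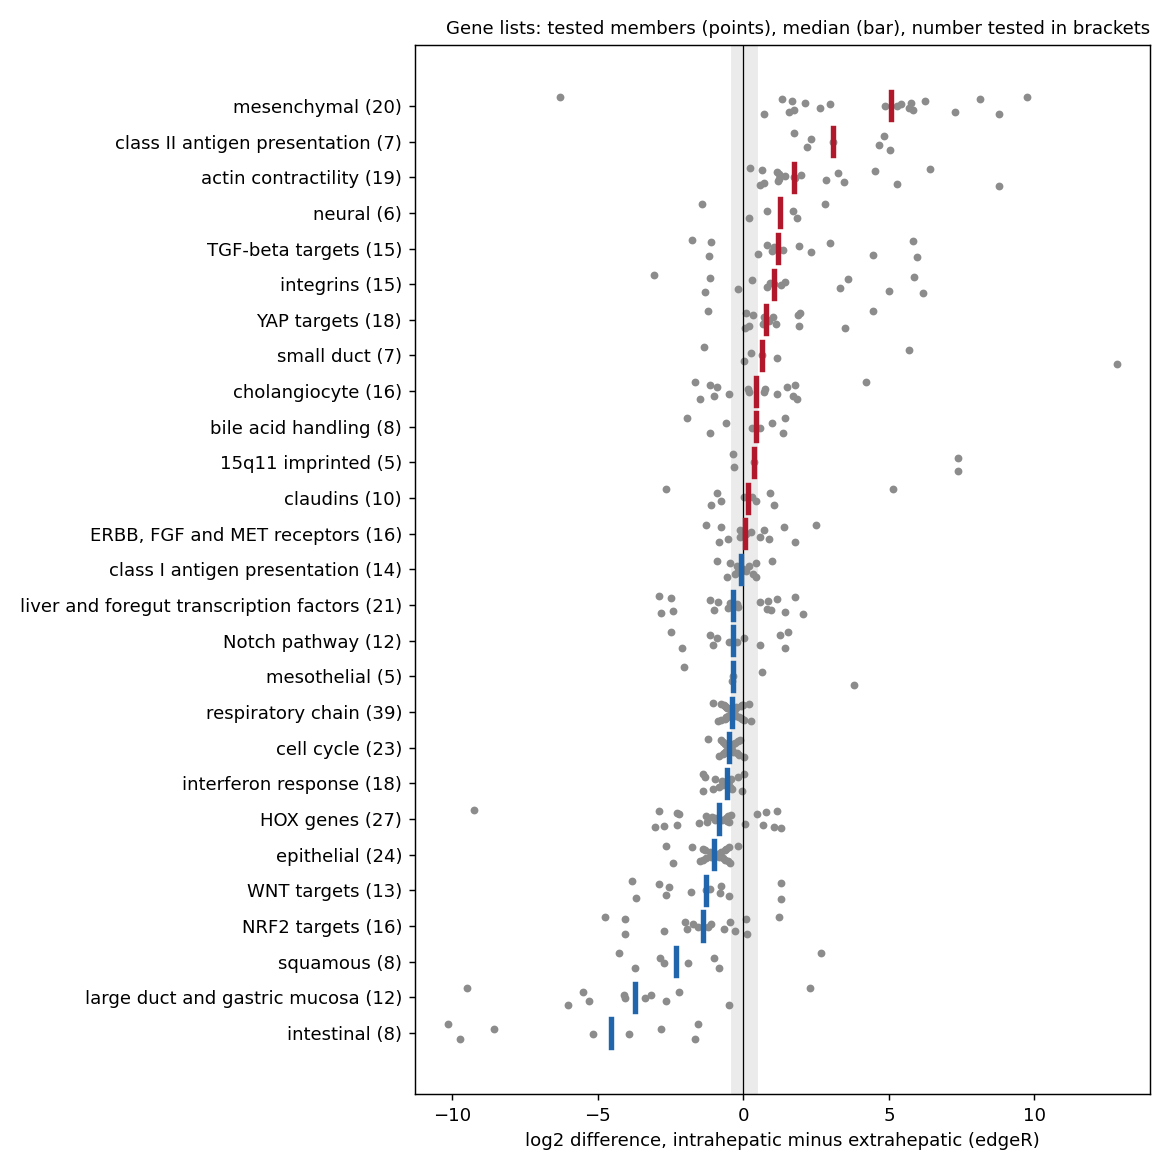
Log2 differences, intrahepatic minus extrahepatic, of the tested members (points) of each list with at least 5 of them, with the list median as a bar and the middle 50% of all genes tested as a grey band. Medians ran between -4.53 for intestinal genes and 5.08 for mesenchymal genes.

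WNT targets, which report on beta-catenin signalling, were negative in 11 of 13 (median -1.27), and SNU-1196 and SNU-245 held the highest mean levels (2.23 and 1.97 log2 units above the average). The median was -0.62 without SNU-1196 and -2.16 without HuCCT1. AXIN2, a feedback inhibitor of WNT signals, was at 14.2, 24.5, 17.3 and 1.33 CPM in the intrahepatic lines, against 8.34, 6.48, 175, 236 and 24.1 CPM in the extrahepatic lines. SP5, a WNT-induced transcription factor, was at 0.51, 0.0848, 0 and 1.25 CPM in the intrahepatic lines, against 2.73, 1.89, 2.01, 23.5 and 2.98 CPM in the extrahepatic lines, without overlap (edgeR adjusted p 0.723). Receptors of the ERBB, FGF and MET families and related kinases were positive in 9 of 16 (median 0.07, and -0.1 to 0.51 without 1 line). EGFR, the epidermal growth factor receptor, was at 262, 53, 374 and 260 CPM in the intrahepatic lines, against 73.7, 167, 44.8, 65 and 94.3 CPM in the extrahepatic lines, and 3 of the 4 intrahepatic lines were above all extrahepatic lines. ROR1, an orphan receptor kinase, was at 52.8, 62.1, 52.7 and 17.2 CPM in the intrahepatic lines, against 20.6, 30.5, 6.25, 3.24 and 7.08 CPM in the extrahepatic lines, with TKKK in the overlap. The Notch list was positive in 5 of 12 (median -0.36), with a median of -0.18 without HuH28 or SNU-1196 and -0.59 without TKKK. JAG1, the Notch ligand needed for intrahepatic duct formation, was at 259, 355, 250 and 182 CPM in the intrahepatic lines, against 32.2, 23, 183, 116 and 91.9 CPM in the extrahepatic lines. TKKK and SNU-1196 were level and the others were apart (log2 1.55, SE 0.58, edgeR adjusted p 0.743).

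NRF2 targets, which handle oxidants and xenobiotics, were negative in 13 of 16 (median -1.39), with TFK-1 at 3.37 log2 units above the average. Without TFK-1 the median was -0.22 and 8 of 16 were negative. GCLC, the glutathione synthesis subunit, was at 39.1, 19.4, 80.1 and 66.7 CPM in the intrahepatic lines, against 61, 223, 139, 216 and 116 CPM in the extrahepatic lines, with EGI-1 in the intrahepatic range. AKR1C2, an aldo-keto reductase, was at 8.07, 28.2, 51.6 and 16.5 CPM in the intrahepatic lines, against 72, 450, 19.5, 181 and 2760 CPM in the extrahepatic lines, and its reads may be shared with close paralogs. Interferon response genes were negative in 17 of 18 (median -0.57), yet the lines split across sites, with mean levels of 2.72 in HuCCT1 and 2.91 in TFK-1 and between -2.28 and -2.04 in the other intrahepatic lines. The list median was 0.17 without TFK-1 and -3.3 without HuCCT1, and -0.28, -0.21 and -0.25 without HuH28, SNU-1079 and TKKK. OAS1, an antiviral RNA sensor, was at 252, 0, 12 and 5.83 CPM in the intrahepatic lines, against 173, 204, 33.8, 137 and 339 CPM in the extrahepatic lines. IRF9, the DNA-binding subunit of the interferon-activated complex, was at 95.9, 45.9, 42.6 and 79.1 CPM in the intrahepatic lines, against 104, 180, 177, 181 and 229 CPM in the extrahepatic lines, without overlap (edgeR adjusted p 0.679).

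Class II antigen presentation genes were positive in all 7 tested members of 11 (median 3.07). Without HuH28, 6 of 7 were positive and the median was 2.29. The count filter favours members high in 1 group, so these counts are partly set by it. The 11 listed genes summed to 540, 471, 50.3 and 21 CPM in HuCCT1, HuH28, SNU-1079 and TKKK, against 143, 20.5, 42.8, 43.1 and 10.6 CPM in EGI-1, Sk-ChA-1, SNU-1196, SNU-245 and TFK-1, and HuCCT1 and HuH28 were the highest lines. HLA-DMB, a peptide-exchange factor, was at 1.19, 5.34, 16.1 and 1.08 CPM in the intrahepatic lines, against 0.561, 0, 0.297, 0 and 0.139 CPM in the extrahepatic lines. HLA-DRA, the alpha chain of the DR molecule, was at 2.63, 44.4, 0.0819 and 3.58 CPM in the intrahepatic lines, against 1.2, 0.146, 0.0744, 0.0982 and 0.347 CPM in the extrahepatic lines, and SNU-1079 was among the lowest. Both are entries that the table gives in several numbered copies, so their counts are uncertain. Class I genes were positive in 6 of 14 (median -0.08, and -0.31 to 0.27 without 1 line).

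Respiratory chain genes were negative in 36 of 39 (median -0.38), small steps that were also seen without HuH28 (34 of 39, median -0.36). By line, mean list levels were -0.03, -0.4, -0.12 and -0.24 log2 units in HuCCT1, HuH28, SNU-1079 and TKKK. They were -0.45, 0.12, 0.19, 0.52 and 0.42 in EGI-1, Sk-ChA-1, SNU-1196, SNU-245 and TFK-1. The extrahepatic EGI-1 was thus the lowest line, and the other extrahepatic lines lay above all intrahepatic lines. Of the 39 members, 1 had no overlap, as did 1.92% of all genes tested, so the list did not stand out in this count. COX7A2, a subunit of cytochrome c oxidase, was at 47.7, 41.6, 58.8 and 40.9 CPM in the intrahepatic lines, against 112, 110, 72.4, 97.5 and 97.2 CPM in the extrahepatic lines, without overlap (log2 -1.05, SE 0.26, edgeR adjusted p 0.648). Cell cycle genes were negative in 22 of 23 (median -0.5), with TKKK at -1.85 log2 units. The median was -0.22 without TKKK, -0.3 without SNU-1196 and 0.11 with line source as a covariate. That covariate fit compares site within KCLB alone, as SNU-1079 against SNU-1196 and SNU-245. CCNB2, a mitotic cyclin, was at 52.5, 57.1, 53.3 and 25.5 CPM in the intrahepatic lines, against 67.4, 76.8, 136, 56.3 and 212 CPM in the extrahepatic lines. HuH28 and SNU-245 were level and TKKK was lowest.

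Imprinted genes of 15q11 were positive in 2 of 4 tested members (median 0.02), with SNRPN and SNURF, which have identical counts, taken once. SNRPN, a splicing protein gene expressed from the paternal copy, was at 0.085, 38.1, 65.9 and 29.7 CPM in the intrahepatic lines, against 0, 0.0728, 0.0744, 0.884 and 0 CPM in the extrahepatic lines. HuCCT1 was alone among the intrahepatic lines in having almost none (log2 7.36, SE 1.77, edgeR adjusted p 0.648). SNURF lies on the same transcript.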

How the data were processed

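RNA of each line was made into a TruSeq Stranded mRNA library, per the labels' protocols. Raw read counts per transcript entry were deposited by the authors as 1 table. The submitters' processing notes name Trimmomatic, TopHat2 2.0.8, Picard 1.69, featureCounts and the build hg19 (GRCh37). Which annotation and strand setting served the counting was not given in the sources used here. Antisense and overlapping genes are therefore uncertain. Of 24222 entries, 23512 received symbols from RefSeq and 355 from GENCODE tables, 335 carried a copy number, and 355 had no symbol (0.48% of counts).

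Counts were scaled by TMM, filtered with filterByExpr and fitted with robust glmQLFit in edgeR 4.0.16 (R 4.3.3), testing site alone, with 7 residual degrees of freedom. The common dispersion was 0.688. Alternatives were RLE scaling, 2 other count filters, non-robust dispersion, DESeq2 1.42.0, limma-voom 3.58.1, 19 lines in 1 fit, origin or source as covariates, primary lines, OZ in either group and lines left out. In the source covariate DSMZ and Zurich University were taken as 1 source, so site was compared within KCLB alone. Counts of list members without HuH28 were added after the data were seen. The tests were tried on simulated data.

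The lines, and the 31 lists, were chosen with earlier results of these data known. Genes are named as the 12 of smallest p and the 8 largest non-overlapping steps in median log2(CPM + 0.5) per direction, at 5 CPM or more in every line of the higher group, plus up to 4 of smallest p per list and 4 markers by line. A gene that this rule also names is not reported here. Counting intervals cover counting error only, and p-values the spread between lines. List counts and medians describe the members that passed the count filter, which favours members high in 1 group.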

Additional observations from a re-analysis of the deposited data

Results flagged for a closer look

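In groups of 4 or 5 lines, the gap between the most extreme line and its neighbour was set against the range of the group by Dixon's criterion, for log2 levels of the genes named and for library totals. Of 144 groups, 19 had a line apart, and chance flags about 1 in 20. No explanation was tested.

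Among intrahepatic lines, HuH28 was apart for KRT19 (1.02 CPM, low), for its total count (14.25 M counts, high) and for the share of counts in its 10 highest genes (6.2%, high). TKKK was apart for THBS1 (77.2 CPM, low), ROR1 (17.2 CPM, low), CCNB2 (25.5 CPM, low) and LGALS4 (2.16 CPM, high). HuCCT1 was apart for SNRPN (0.085 CPM, low).

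Among extrahepatic lines, TFK-1 was apart for S100A4 (12.6 CPM, low), EDAR (0.347 CPM, low), FIGN (5.2 CPM, high) and CDH2 (39.6 CPM, high). For these 4 genes TFK-1 was the extrahepatic line nearest to the intrahepatic ones. EGI-1 was apart for EVC (3.21 CPM, high), INHBA (6.02 CPM, high) and KRT7 (23.7 CPM, low). SNU-1196 was apart for LOC100130992 (6.92 CPM, high) and PCSK6 (22.1 CPM, low). SNU-245 was apart for LGALS4 (1230 CPM, high) and SP5 (23.5 CPM, high).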

How the results depend on the processing

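The 2 higher and 0 lower calls were the same under RLE scaling, both other count filters and non-robust dispersion. DESeq2 called 177 higher and 116 lower. Higher calls numbered 1 with limma-voom, 1 with origin as a covariate, 1 with OZ as intrahepatic, and 0 with 19 lines, line source as a covariate, primary lines, OZ as extrahepatic or without HuH28 and SNU-245. Leaving out 1 line gave 0 to 3 higher and 0 to 1 lower calls. Without TKKK, FLRT2 joined CDH6 and TPM1 (named after its values were seen; log2 10.61, edgeR adjusted p 0.0203). Genes without overlap numbered 558 higher and 509 lower among primary lines, 61 and 87 with OZ as intrahepatic, 77 and 80 with OZ as extrahepatic, 363 and 364 without HuH28 and SNU-245, and 193 to 488 and 218 to 384 without 1 line. Fewer lines make non-overlap easier and more lines make it harder. KRT7 reversed from a log2 difference of 0.20 to -0.29 among primary lines, -0.11 without EGI-1, -0.27 without HuCCT1 and -0.1 without SNU-1079 (highest 0.64, without TFK-1), and HLA-DRA reversed to -0.06 with line source as a covariate. The cause was not tested. The source covariate, under which site is compared within KCLB alone, moved the median of all genes to -0.12. Over 16 alternatives the median changed sign in at least 1 for the hepatocyte, endothelial, leukocyte, mesothelial, cholangiocyte, claudin, liver and foregut factor, small duct, neural, bile acid, class I, interferon, receptor, 15q11 and cell cycle lists, and in none for the other lists. The endothelial median could not be computed in the fits that filtered out its 1 tested member. No paired analysis was possible because each library is a different line and the labels pair none of them.

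The limits are 1 library per line, 4 and 5 lines, and sources that hold both sites in 1 case alone, so site and source cannot be told apart for the other lines. Transcripts under about 0.3 CPM lie at the level of 3 counts.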
